A study of Mus musculus with 12 samples.

Results

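The 6 genes described here, of 46078 in the deposited tables, are Ighm, Ighd and Igha, which encode the constant regions of the IgM, IgD and IgA heavy chains, Igkc, which encodes the constant region of the kappa light chain, Jchain, which encodes the joining chain of polymeric antibodies, and Cd79b, which encodes a signalling subunit of the B cell receptor. They were picked by gene symbol, with their read counts in these same libraries already known, so their values are a description and no test is given for them. The cells were mouse CD8 T cells from C57BL/6 spleen, harvested on day 7 of culture in 4 groups of 3 libraries. All 4 groups received the cytokines IL-2 and IL-15, growth and survival factors of activated T cells. The group called IL-2 + IL-15 received nothing more, the RA group also received RA (all-trans retinoic acid, the ligand of the nuclear receptors Rara, Rarb and Rarg), the TGFb group also received the cytokine TGFb, and the TGFb + RA group received both. The labels call the libraries of a group biological replicates and give neither doses nor which animals a library came from, and they name no genetic change in any group.

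Antibody heavy chains are made from a locus in which variable, diversity and joining segments lie before a row of constant region genes. In B cells the segments are joined first, and switching then brings another constant region gene behind the joined segments. Before switching, a constant region gene is transcribed from its own upstream promoter as a germline transcript, which carries no variable segment, and in B cells TGFb is known to induce the germline transcript of Igha and RA to favour IgA. The heavy chain constant region and the joining segments with their intronic enhancer are also known to be transcribed at some level in T cells, without an antibody being made.

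In GENCODE for GRCm38, Ighm lies at chr12:113418558-113422730, Ighd at chr12:113406604-113416324 and Igha at chr12:113254830-113260236, all on the minus strand, so that transcription meets Ighm first, Ighd 2233 bases further on, and Igha 158321 bases after Ighm. Igkc lies at chr6:70726435-70726966 on the plus strand, inside an intron of the long noncoding RNA Gm30211. Jchain lies at chr5:88519809-88527891 and Cd79b at chr11:106311341-106314762, both on the minus strand. The models of the 4 constant region genes and of Ighg3 (IgG3) begin with coding sequence of the first constant exon. Under these models, reads lying wholly in the noncoding first exons that open germline transcripts would not be counted. The annotation release behind the deposited counts is not given, so its models may differ. The first 60 bases of these 5 models are printed because they are where a germline or a rearranged transcript would join the counted part. They are in lower case throughout, since no base in them is singled out, and were read from the GENCODE transcripts:
Ighm (chr12:113422671-113422730, minus strand): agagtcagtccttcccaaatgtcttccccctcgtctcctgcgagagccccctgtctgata
Ighd (chr12:113416265-113416324, minus strand): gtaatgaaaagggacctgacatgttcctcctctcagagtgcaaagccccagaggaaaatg
Ighg3 (chr12:113361173-113361232, minus strand): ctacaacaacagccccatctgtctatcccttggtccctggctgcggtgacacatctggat
Igha (chr12:113260177-113260236, minus strand): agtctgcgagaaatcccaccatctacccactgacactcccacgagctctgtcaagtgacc
Igkc (chr6:70726435-70726494, plus strand): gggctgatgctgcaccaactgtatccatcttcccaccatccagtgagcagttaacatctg

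No exon base of the 6 genes is shared with another gene on either strand. None of the 50-base words in their transcripts (0 of 1837 for Ighm and 0 of 2619 for Igha, for example) occurs in a transcript of another gene, so reads of one member could not be split with a close copy over such a length. Of the words of Ighg3, 1.58% also occur in Ighg1 or Ighg2b.

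The libraries held 18300206 to 33477037 counts. All 8 markers of CD8 T cells, among them Cd3e, Cd8a and the T cell receptor gene Trac, were present in every library, with a summed level of 5129 to 8932 CPM (counts scaled to library size, by the TMM method). The myeloid genes Lyz2, S100a8 and S100a9 had 323, 97 and 177 counts in TGFb + RA replicate 3 and at most 23 in any other library. Over all 10 myeloid markers, of which Siglech was at 0 in every library, the summed level was 38.4 to 49.2 CPM in IL-2 + IL-15, 11.2 to 25.6 in RA, 7.57 to 11.99 in TGFb and 3.33 to 27.0 in TGFb + RA. Itgam, an integrin chain, had mean levels of 42.9, 19.4, 9.72 and 3.99 CPM in the same order and made up most of the sum in every group but TGFb + RA, where Lyz2 averaged 4.06 CPM, nearly all of it from replicate 3. The 5 erythroid markers together had at most 6 counts in a library. Without TGFb + RA replicate 3, the log2 differences of Ighm and Igha between TGFb + RA and IL-2 + IL-15, given below, were 2.63 and 8.61.

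In TGFb against IL-2 + IL-15, the 3 libraries of one group did not overlap the 3 of the other for 6 of 6 members, all higher with TGFb. Over all 14009 genes tested, 56.1% had groups that did not overlap in that comparison. In TGFb + RA against IL-2 + IL-15 the figure was 5 of 6 members, 4 higher and Igkc lower, beside 69.9% of all genes. In RA against IL-2 + IL-15 it was 2 of 6, Igha higher and Igkc lower, beside 36.0%. In TGFb + RA against TGFb it was 6 of 6, beside 57.9%, with Ighm and Igha higher and Ighd, Igkc, Jchain and Cd79b lower with RA. In TGFb + RA against RA it was 4 of 6, beside 64.5%, all higher with TGFb. Because these contrasts entered the choice of the genes, nothing is read from those counts. Several of the comparisons share their control libraries.

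**Figure D1:**
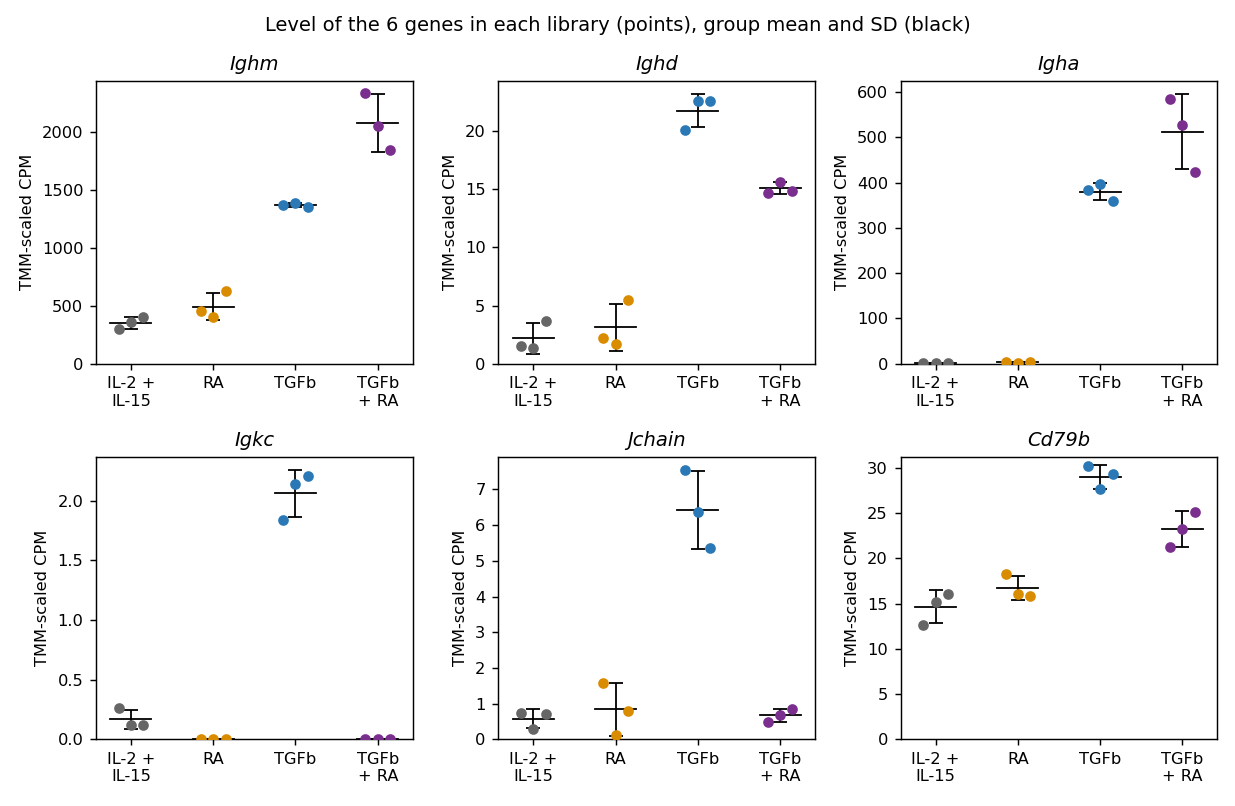
TMM-scaled CPM of Ighm, Ighd, Igha, Igkc, Jchain and Cd79b on linear axes from 0, with a point per library and the mean and SD of each group of 3 in black. Igha moves from under 4 CPM in the libraries without TGFb to over 359 CPM in those with it, while Igkc and Jchain stand high in the TGFb group alone.

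Ighm, the first constant region gene of the locus, was abundant in all cultures. Its counts were 8005, 8815 and 13046 in IL-2 + IL-15 replicates 1 to 3, which is 301, 359 and 401 CPM. In RA they were 9972, 10598 and 13123, or 454, 399 and 624 CPM. The RA values reach higher than those of IL-2 + IL-15, but the lowest RA library lies within the range of the IL-2 + IL-15 group. Between libraries of the same number, which deviated together in these groups, Ighm was higher with RA in all 3 pairs. In TGFb the counts were 35809, 33737 and 33818, or 1371, 1387 and 1354 CPM. In TGFb + RA they were 44109, 65322 and 49979, or 2335, 2049 and 1839 CPM. Both groups with TGFb lay above all 6 libraries without it, and every TGFb + RA library lay above every TGFb library.

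The group means of Ighm were 353 ± 50.2 CPM (SD, n = 3) in IL-2 + IL-15, 492 ± 118 with RA, 1371 ± 16.6 in TGFb and 2074 ± 249 in TGFb + RA. On the log2 scale of the fit over all genes, the difference from IL-2 + IL-15 was 0.48 ± 0.14 (SE) with RA, 1.96 ± 0.15 with TGFb and 2.55 ± 0.15 with both. RA added 0.60 ± 0.14 within the TGFb cultures, and the departure from additive log2 effects of TGFb and RA was 0.12 ± 0.20, which was -0.028 without RA replicate 2. Per kilobase of exon, which allows levels to be set between genes, Ighm stood at 187 ± 26.6 CPM per kb in IL-2 + IL-15, rank 221 of 13942 genes with a known length. In TGFb + RA it stood at 1100 ± 132 CPM per kb, rank 16, where Cd8a, the coreceptor chain that defines these cells, stood at 844 ± 18.1 and Trac at 574 ± 8.02. The ranks of Ighm in RA and TGFb were 160 and 32.

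Igha, the last constant region gene of the locus, showed the widest range of the 6. It had 38, 36 and 45 counts in IL-2 + IL-15, or 1.43, 1.46 and 1.38 CPM. With RA it had 85, 43 and 63 counts, or 3.87, 1.62 and 3.00 CPM. All 3 RA libraries lay above all 3 of IL-2 + IL-15, one of them narrowly. With TGFb it had 10036, 9647 and 8974 counts, or 384, 397 and 359 CPM. With TGFb + RA it had 11069, 16823 and 11491 counts, or 586, 528 and 423 CPM, the lowest of which was above the highest TGFb library.

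Mean levels of Igha were 1.42 ± 0.041 CPM (SD, n = 3) in IL-2 + IL-15, 2.83 ± 1.13 with RA, 380.1 ± 19.05 in TGFb and 512 ± 82.7 in TGFb + RA. TGFb alone gave a log2 difference of 8.06 ± 0.20 (SE), which is a 267-fold difference, and both agents gave 8.49 ± 0.20 against IL-2 + IL-15. The log2 difference of RA was 0.96 ± 0.30 without TGFb and 0.43 ± 0.13 with it. By CPM per kb, Igha moved from rank 11863 of 13942 genes in IL-2 + IL-15 to rank 270 in TGFb and 198 in TGFb + RA. On that scale it stayed under Ighm in every group.

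Ighd, which lies directly behind Ighm and is usually made by alternative splicing of a transcript that begins before Ighm, was far lower than Ighm in all libraries. Its counts were 40, 33 and 120 in IL-2 + IL-15 (1.502, 1.34 and 3.68 CPM) and 48, 46 and 115 in RA (2.18, 1.73 and 5.47 CPM). Replicate 3 stood highest in both groups, and in all 3 pairs of the same number the RA library was the higher. With TGFb it had 525, 550 and 563 counts (20.1, 22.6 and 22.5 CPM), and with TGFb + RA 278, 499 and 403 (14.7, 15.7 and 14.8 CPM). Unlike Ighm and Igha, Ighd was lower in every TGFb + RA library than in every TGFb library. The log2 difference from IL-2 + IL-15 was 3.27 ± 0.34 (SE) for TGFb and 2.74 ± 0.35 for TGFb + RA, and that of TGFb + RA from TGFb was -0.53 ± 0.29. Without IL-2 + IL-15 replicate 3, the first of these values was 3.93 and the second 3.40.

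**Figure D2:**
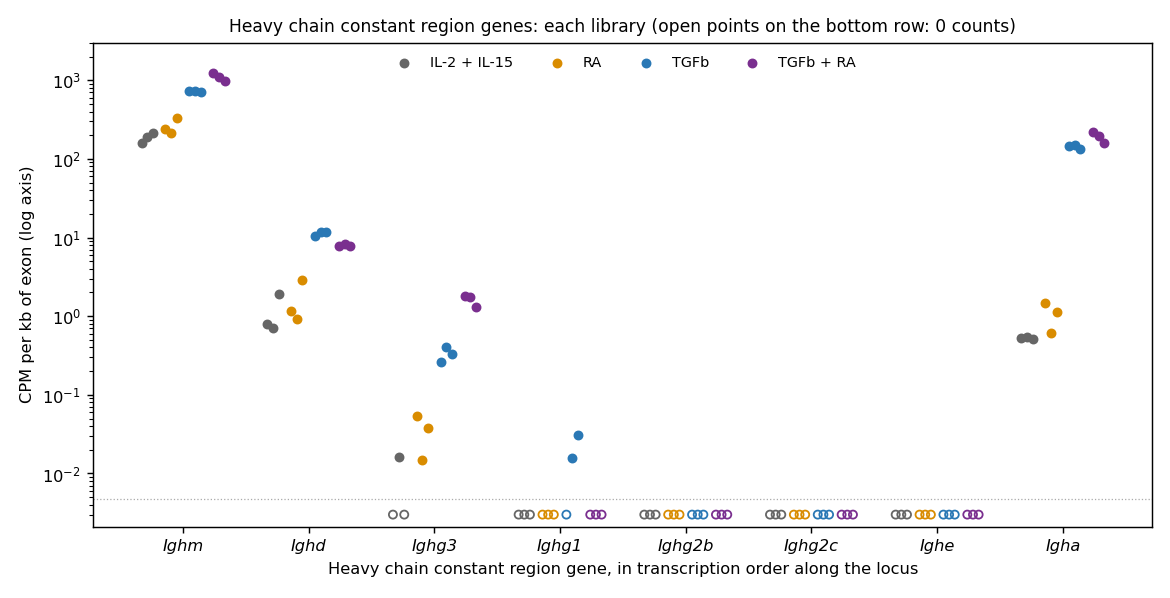
CPM per kilobase of exon, on a log axis, for the 8 heavy chain constant region genes in the order in which transcription meets them, with a point per library, coloured by group. Ighm, Ighd, Ighg3 and Igha have counts in every TGFb and TGFb + RA library, whereas Ighg2b, Ighg2c and Ighe are at 0 in all 12 (open points on the bottom row).

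Between Ighd and Igha lie the genes of the IgG subclasses and of IgE. These genes and the 4 lambda light chain constant genes were in a list of 9 other immunoglobulin constant region genes, of which only Ighg3 had enough counts to be tested. Ighg3 had 0, 1 and 0 counts in IL-2 + IL-15, 3, 1 and 2 in RA, 17, 25 and 21 in TGFb, and 86, 141 and 89 in TGFb + RA. The TGFb libraries lay above all those without TGFb, and the TGFb + RA libraries lay above all others. Ighg3 passed the filter on low counts only through the groups with TGFb. A call of these groups against IL-2 + IL-15 could then only be a rise, so no p is given for it. Ighg3 does enter the list counts below. With 1 count in the 3 IL-2 + IL-15 libraries together, the ratio of summed counts per depth was 70.0 for TGFb (exact 95% interval 12.1 to 2808). For TGFb + RA it was 340 (60.5 to 13455). These intervals cover counting error only. Within the TGFb cultures, Ighg3 rose with RA by 2.28 ± 0.25 (SE) on the log2 scale (edgeR quasi-likelihood test, Benjamini-Hochberg adjusted p = 7.54e-06), from 0.840 ± 0.189 to 4.08 ± 0.704 CPM (SD, n = 3).

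Ighg3 with RA alone did not pass the threshold (edgeR adjusted p = 0.0975, ratio 7.22 with an exact 95% interval of 0.876 to 332). Ighg1 had 1 and 2 counts in TGFb replicates 2 and 3 and 0 in every other library. Ighg2b, Ighg2c, Ighe and Iglc1 to Iglc4 were at 0 counts in all 12 libraries. Counts of 0 in a library allow up to 3 counts, so levels below that were not detectable at this depth.

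The proportions between the heavy chain genes also differed between groups. Per length, Igha stood at 0.289% ± 0.0459 of Ighm (SD, n = 3) in IL-2 + IL-15 and 0.410% ± 0.169 in RA, and at 19.6% ± 0.752 in TGFb and 17.4% ± 1.02 in TGFb + RA. The ratio of Igha to Ighm in the lowest library with TGFb, 16.3%, was far above that in the highest library without it, 0.603%. Ighd stood at 0.594% ± 0.284 of Ighm in IL-2 + IL-15, 0.593% ± 0.241 with RA, 1.58% ± 0.105 in TGFb and 0.728% ± 0.0912 in TGFb + RA. On this ratio the TGFb group alone stood apart, at 1.46% to 1.65%, and the TGFb + RA libraries, at 0.626% to 0.800%, lay within the range of the libraries without TGFb, 0.372% to 0.913%.

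The joining and variable segments of the heavy chain locus were read as summed counts. The 4 Ighj segments, which lie 5783 bases before Ighm at their nearest and belong to the region from which unrearranged transcripts run, had 51, 62 and 135 counts in IL-2 + IL-15 and 40, 54 and 101 in RA. They had 745, 713 and 590 in TGFb and 793, 1018 and 757 in TGFb + RA, so the groups with TGFb lay above all libraries without it. For every 100 counts of Ighm there were 0.792 ± 0.213 (SD, n = 3) Ighj counts in IL-2 + IL-15, 0.560 ± 0.189 with RA, 1.98 ± 0.204 in TGFb and 1.62 ± 0.152 in TGFb + RA. Of 350 variable segments of all chains, 316 were at 0 in all 12 libraries and 1, Ighv1-55, had more than 10 counts in any library. The 185 Ighv segments together had 2 to 9 counts per library without TGFb, 8, 5 and 15 with TGFb and 39, 65 and 41 with TGFb + RA, which include 11, 23 and 9 of Ighv1-55. At 0.0900 ± 0.00884 Ighv counts per 100 Ighm counts in TGFb + RA and 0.0272 ± 0.0153 in TGFb, variable segments had few counts beside the constant region. These ratios are of raw counts and not per length. The treatment of multiply mapped reads is not given, and sequence shared between variable segments was not checked.

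**Figure D3:**
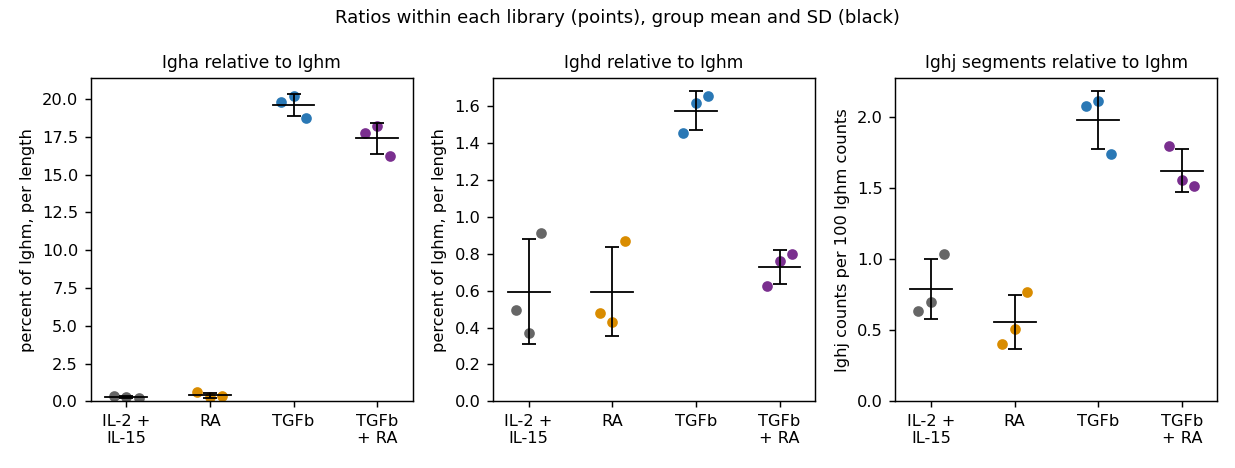
Ratios within each library, on linear axes from 0: Igha and Ighd as a percentage of Ighm per length, and Ighj counts per 100 Ighm counts, with a point per library and the mean and SD of each group of 3 in black. The group means of the Igha ratio are 0.289% and 0.410% without TGFb and 19.6% and 17.4% with it, and the ratio of Ighd is high in the TGFb group alone.

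Igkc, the kappa light chain gene on another chromosome, was highest with TGFb and at 0 wherever RA was present. It had 7, 3 and 4 counts in IL-2 + IL-15 (0.263, 0.122 and 0.123 CPM), 48, 52 and 55 in TGFb (1.84, 2.14 and 2.20 CPM) and 0 in each of the 6 libraries with RA. The log2 difference between TGFb and IL-2 + IL-15 was 3.58 ± 0.33 (SE), or 4.02 without IL-2 + IL-15 replicate 1. Ratios of summed counts per depth were formed by taking 3 counts over a group as the most that a count of 0 allows. With 155 counts, TGFb then stood 53.4-fold above TGFb + RA and 47.7-fold above RA. With 14 counts, IL-2 + IL-15 stood 3.88-fold above RA and 4.34-fold above TGFb + RA. These ratios take the counts of the higher group as exact and leave out the spread between libraries, so they are not strict lower limits. The kappa joining segments gave 12, 9 and 3 counts in TGFb, 1 in IL-2 + IL-15 replicate 3 and 0 elsewhere. The 162 kappa variable segments together had at most 1 count in a TGFb library and 3 to 9 in a TGFb + RA library.

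Jchain, whose protein links IgA and IgM units into polymers, was also highest in the TGFb group. Its counts were 20, 7 and 23 in IL-2 + IL-15, 35, 3 and 17 in RA, 197, 155 and 134 in TGFb, and 9, 22 and 23 in TGFb + RA. In CPM these are 0.751, 0.285 and 0.706, then 1.59, 0.113 and 0.809, then 7.54, 6.37 and 5.37, and last 0.476, 0.690 and 0.846. All TGFb libraries lay above the other 9, and the other 3 groups overlapped. Between same-numbered libraries of IL-2 + IL-15 and RA, Jchain was lower with RA in replicate 2 and higher in replicates 1 and 3. The log2 difference of TGFb from IL-2 + IL-15 was 3.43 ± 0.46 (SE), that of TGFb + RA from TGFb was -3.22 ± 0.46, and that of TGFb + RA from IL-2 + IL-15 was 0.21 ± 0.58, which was -0.089 without IL-2 + IL-15 replicate 2. The departure from additive log2 effects was -3.66 ± 0.75, the largest of the 5 members for which it could be fitted (Igkc, at 0 with RA, gave none).

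Jchain was the only member with an entry in the RefSeq promoter table for GRCm38.p6, and the 250 bases before its start, at chr5:88527898-88528147 on the minus strand, are shown because its level differed with both agents. The octamer ATGCAAAT, a Runx motif TGTGGT, a Smad palindrome GTCTAGAC and the half-site AGGTCA of nuclear receptors were searched on both strands. AGGTCA was found once, on the gene's strand at bases 8 to 13, and is in capitals, while the letters of the other 3 motifs are not in this window:
Jchain: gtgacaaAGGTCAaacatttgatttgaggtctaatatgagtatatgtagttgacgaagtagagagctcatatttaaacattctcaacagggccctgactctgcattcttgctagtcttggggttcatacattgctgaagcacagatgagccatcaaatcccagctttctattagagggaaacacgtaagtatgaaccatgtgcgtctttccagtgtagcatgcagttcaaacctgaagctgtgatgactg
Of 32851 promoters searched over the same length, 14% held AGGTCA, 14% TGTGGT, 1.6% the octamer and 0.167% the Smad palindrome. A match is a description of letters only.

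Cd79b, which pairs with Cd79a to carry the signal of the B cell receptor, varied least among the 6. Its counts were 336, 374 and 524 in IL-2 + IL-15 (12.6, 15.2 and 16.1 CPM) and 401, 427 and 332 in RA (18.2, 16.1 and 15.8 CPM). They were 788, 671 and 731 in TGFb (30.2, 27.6 and 29.3 CPM) and 402, 742 and 684 in TGFb + RA (21.3, 23.3 and 25.2 CPM). The TGFb libraries were the highest, the TGFb + RA libraries came next without overlap, and the other groups overlapped. Between same-numbered libraries of IL-2 + IL-15 and RA, Cd79b was lower with RA in replicate 3 and higher in replicates 1 and 2. The log2 difference from IL-2 + IL-15 was 0.98 ± 0.10 (SE) with TGFb, 0.67 ± 0.10 with TGFb + RA and 0.19 ± 0.10 with RA, and that of TGFb + RA from TGFb was -0.32 ± 0.09.

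**Figure D4:**
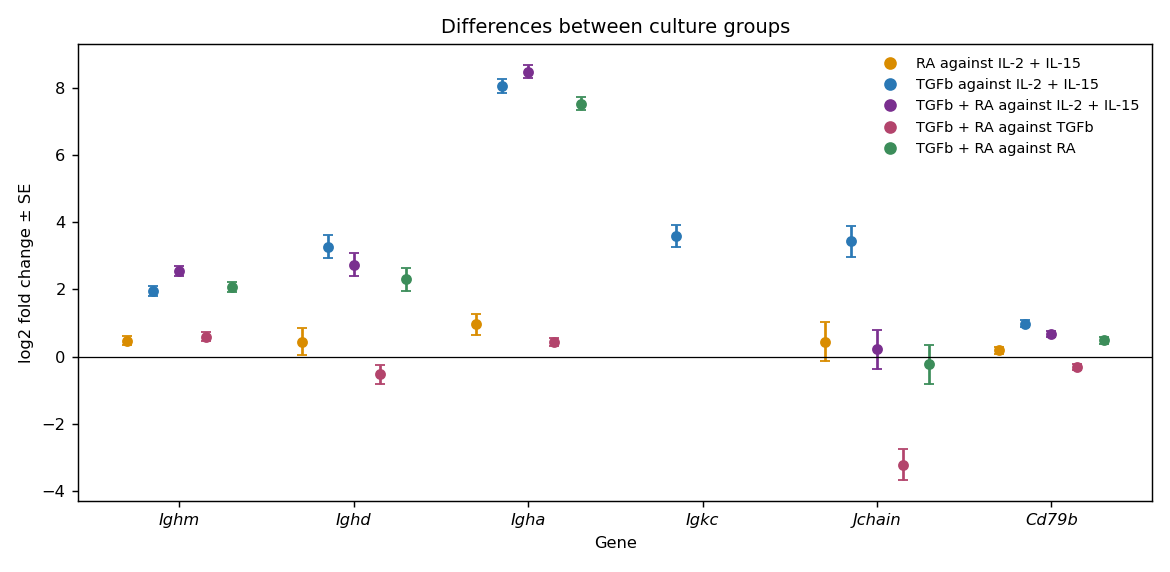
Log2 fold changes with their SE from the fit over all genes, for 5 comparisons of 2 groups in each of the 6 genes; for Igkc only the comparison without a group at 0 is drawn. The differences between TGFb + RA and TGFb lie above 0 for Ighm and Igha and below 0 for Ighd, Jchain and Cd79b.

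Setting the members side by side, TGFb + RA stood above TGFb for Ighm (2074 against 1371 CPM) and Igha (512 against 380.1 CPM), and for Ighg3 among the other constant region genes. It stood below TGFb for Ighd (15.1 against 21.8 CPM), Cd79b (23.2 against 29.0 CPM), Jchain (0.671 against 6.43 CPM) and Igkc (0 against 2.06 CPM). By CPM per kb in TGFb, Ighm came first at 727 ± 8.82 (SD, n = 3), Igha next at 142 ± 7.14, and then Cd79b at 20.3 ± 0.917, Ighd at 11.5 ± 0.752, Igkc at 3.87 ± 0.365 and Jchain at 2.55 ± 0.433. Each neighbour in this order differed by more than the spread of its libraries.

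Markers of B cells were read in the same libraries. Of 16 B cell markers, 10 (among them Ms4a1, Pax5, Ebf1, Cr2, Fcer2a, Vpreb3, Fcrla, Blnk and Spib) had at most 6 counts in every library, and Fcer2a and Blnk were at 0 in all. Pax5, the transcription factor of B cell identity, had 0 or 1 counts in every library, including the 3 of TGFb + RA, where Ighm had 44109 to 65322. The summed level of the list was 85.9 to 88.7 CPM in IL-2 + IL-15, 84.1 to 93.0 in RA, 106 to 119 in TGFb and 131 to 138 in TGFb + RA. Most of it came from Cd72 and Tnfrsf13c, and without these (a subset chosen after their values were seen) the sums were 3.19 to 5.004, 1.73 to 2.62, 6.24 to 8.13 and 6.92 to 11.7 CPM. In bulk RNA, fewer cells of a type and less RNA per cell cannot be told apart. Of the 12 plasma cell markers, Tnfrsf17 was at 0 in all libraries and Mzb1 had at most 3 counts, but others were well expressed. In TGFb + RA, the lowest group for both, Xbp1 averaged 77.9 CPM and Irf4 58.6 CPM. The summed level of the plasma cell list was 463 to 487 CPM in IL-2 + IL-15 and 437 to 470 in RA. It was 561 to 568 in TGFb and 330 to 351 in TGFb + RA.

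**Figure D5:**
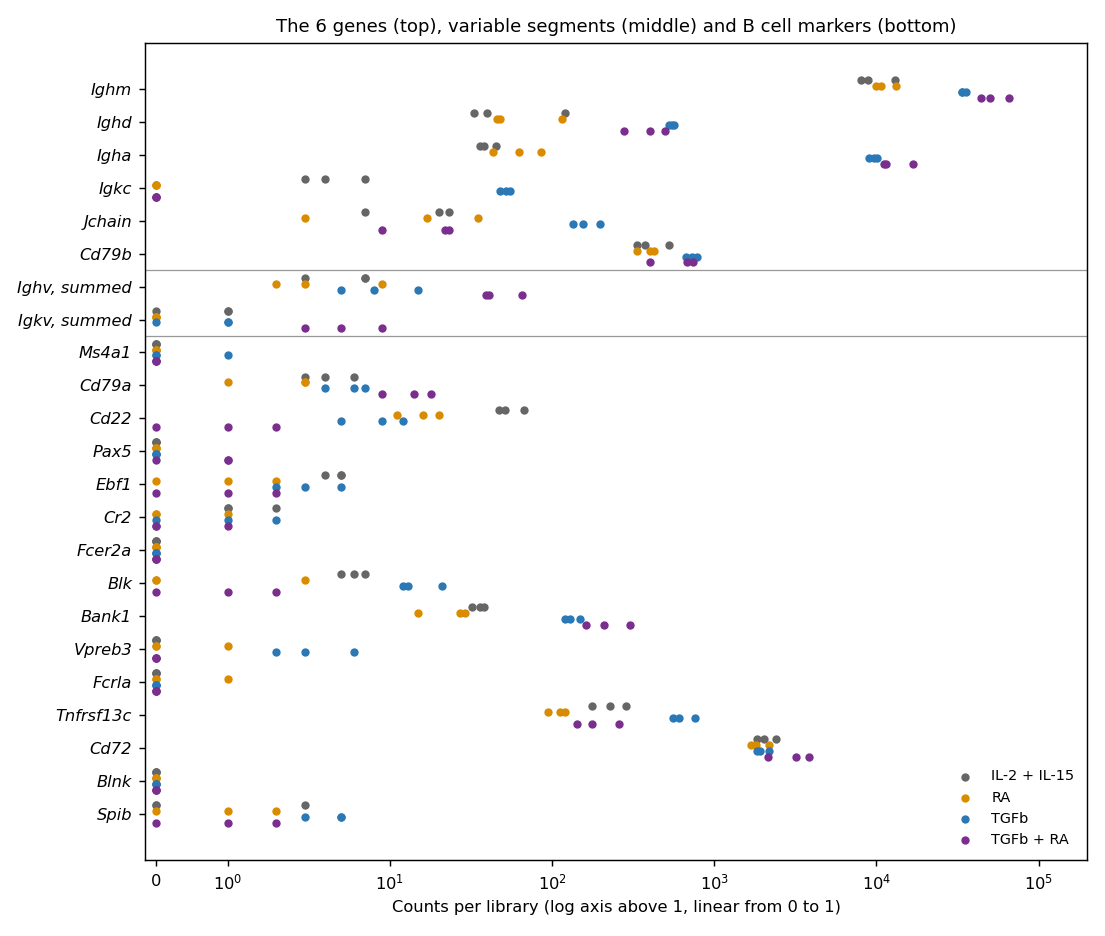
Counts per library, on an axis that is linear from 0 to 1 and logarithmic above, for the 6 genes, the summed heavy and kappa variable segments, and B cell markers, coloured by group. Ighm has 8005 or more counts in every library, whereas Ms4a1, Pax5 and Blnk have 0 or 1.

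Other genes of the pathway were tested in lists: the other constant region genes, genes of germline transcription and class switching, factors that bind immunoglobulin enhancers and promoters, B cell markers and plasma cell markers. Together 58 of their genes had enough counts, and a gene was called at an edgeR adjusted p under 0.05 over all 14009 genes. In TGFb against IL-2 + IL-15, 28 of 58 rose and 15 fell (48.3% and 25.9%), where 20.7% of all genes rose and 22.4% fell, and the median log2 change was 0.15 beside 0.0012 for all genes. In TGFb + RA against IL-2 + IL-15, 22 rose and 24 fell (37.9% and 41.4%), beside 30.8% and 32.4% of all genes. In RA against IL-2 + IL-15, 10 rose and 16 fell (17.2% and 27.6%), beside 12.4% and 14.3%. In TGFb + RA against TGFb, 14 rose and 26 fell (24.1% and 44.8%), beside 20.3% and 22.7%. In TGFb + RA against RA, 23 rose and 17 fell (39.7% and 29.3%), beside 29.4% and 30.8%. The interaction of TGFb and RA was above 0 for 2 genes and below 0 for 12 (3.45% and 20.7%), beside 6.95% and 12.3% of all genes. Because the lists were chosen with earlier results of these data known, nothing is read from these shares or from the counts of single lists below.

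Of the 23 tested genes of germline transcription and class switching, 7 rose and 12 fell in TGFb + RA against IL-2 + IL-15 (median log2 change -0.16, beside 0.0016 for all genes). The DNA repair genes Exo1 and Ung, which take part in class switching in B cells, fell by 3.45 ± 0.23 (SE) and 1.99 ± 0.13 on the log2 scale (edgeR adjusted p = 2.52e-08 and 2.55e-08). Rarg, a retinoic acid receptor, fell from 29.5 ± 1.06 to 10.6 ± 0.626 CPM (SD, n = 3; edgeR adjusted p = 3.54e-10). Smad3, which carries the TGFb signal to the Igha germline promoter in B cells, fell from 84.1 ± 3.00 to 35.0 ± 1.64 CPM (edgeR adjusted p = 3.80e-10).

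In TGFb against IL-2 + IL-15, 8 genes of that list rose and 7 fell, beside a median of 0.011. Of the Runx factors, which bind the same promoter, Runx3 rose by 0.63 ± 0.07 (SE), Runx2 rose by 0.56 ± 0.10 and Runx1 fell by 1.36 ± 0.13 on the log2 scale, with edgeR adjusted p of 6.51e-06, 0.000512 and 1.62e-06. In TGFb + RA against IL-2 + IL-15, Runx3 rose by 0.43 ± 0.07 (edgeR adjusted p = 8.51e-05). Runx2 (0.18 ± 0.10) and Runx1 (-0.16 ± 0.12) were not called there (edgeR adjusted p = 0.142 and 0.246). These 3 were named as a family after their values were seen.

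Of the 18 tested enhancer and promoter factors, 9 rose and 6 fell in TGFb against IL-2 + IL-15, and 9 rose and 5 fell in TGFb + RA against IL-2 + IL-15 (median log2 changes 0.15 and 0.11). The Ikaros family gene Ikzf3 rose in the latter from 177 ± 3.78 to 444 ± 18.2 CPM (SD, n = 3; edgeR adjusted p = 7.04e-11), while its relative Ikzf1 fell from 581 ± 27.1 to 321 ± 6.18 CPM (edgeR adjusted p = 3.55e-09). Id2 and Id3 encode inhibitors of the E proteins, which drive immunoglobulin enhancers. Id2 fell from 345 ± 48.6 to 34.5 ± 1.98 CPM (edgeR adjusted p = 4.99e-10) and Id3 rose from 23.8 ± 0.290 to 70.0 ± 2.98 CPM (edgeR adjusted p = 7.31e-08). Among the factors without a place under the naming rule, Pou2af1, the B cell coactivator of octamer factors, was picked out after its values were seen. It was lower in all 3 comparisons with IL-2 + IL-15, with log2 changes of -2.07 ± 0.29 (SE) with TGFb, -2.48 ± 0.31 with RA and -4.10 ± 0.38 with both. Whether it passed the filter on low counts through IL-2 + IL-15 alone was not checked. If it did, a call could only be a fall, so none is read here.

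Of the 6 tested B cell markers, 3 rose and 1 fell in TGFb against IL-2 + IL-15, and 3 rose and 2 fell in TGFb + RA against IL-2 + IL-15. Cd79a, the partner of Cd79b, passed the filter on low counts only through TGFb + RA, and Blk only through TGFb. A rise in that group was therefore built into their being tested, and both are in these counts. In TGFb + RA against IL-2 + IL-15, Bank1, a B cell scaffold protein, rose from 1.28 ± 0.163 to 8.86 ± 2.61 CPM (SD, n = 3; edgeR adjusted p = 3.74e-07). Cd79a stood at 0.152 ± 0.0311 CPM in IL-2 + IL-15 and 0.526 ± 0.119 CPM in TGFb + RA, which is 9, 14 and 18 counts in the latter. Cd72, an inhibitory coreceptor, rose from 75.0 ± 1.18 to 117 ± 3.09 CPM (edgeR adjusted p = 1.54e-06). Cd22, another inhibitory coreceptor, stood at 2.03 ± 0.649 CPM in IL-2 + IL-15 and 0.0422 ± 0.0379 CPM in TGFb + RA. It passed the filter on low counts only through the groups without TGFb. A call of the groups with TGFb against IL-2 + IL-15 could then only be a fall, so no p is given for it. Cd22 does enter the list counts. The part of these markers in the members' differences was not tested.

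Of the 10 tested plasma cell markers, 7 rose and 1 fell in TGFb against IL-2 + IL-15 (median log2 change 0.27), and 2 rose and 5 fell in TGFb + RA against IL-2 + IL-15 (median -0.19). In the latter, Irf4, a transcription factor of plasma cells and of activated T cells, fell from 194 ± 6.53 to 58.6 ± 1.77 CPM (SD, n = 3; edgeR adjusted p = 2.62e-12), Fkbp11 fell from 1.44 ± 0.0800 to 0.207 ± 0.0949 CPM (edgeR adjusted p = 2.94e-05), and Txndc5, a protein folding enzyme, fell from 78.9 ± 1.32 to 68.8 ± 0.594 CPM (edgeR adjusted p = 0.000516). Tnfrsf13b, a receptor of B cell survival factors, rose from 42.5 ± 0.721 to 54.7 ± 2.62 CPM (edgeR adjusted p = 5.52e-05).

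Protein-coding genes that start within 250000 bases of a member numbered 38, of which 27 were tested. In TGFb against IL-2 + IL-15, 5 rose and 5 fell (6 called without TGFb replicate 1), beside 20.7% and 22.4% of all genes, with a median log2 change of -0.018. Of the 7 tested neighbours of the heavy chain members, 2 rose and 2 fell in that comparison, and 1 rose and 6 fell in TGFb + RA against IL-2 + IL-15, beside 30.8% and 32.4% of all genes. The 1 that rose there was Adam6b, which lies among the heavy chain segments and was picked out after its values were seen. It had 7, 9 and 22 counts in IL-2 + IL-15, 7, 2 and 13 in RA, 91, 93 and 52 in TGFb, and 74, 105 and 60 in TGFb + RA. Its log2 difference from IL-2 + IL-15 was 2.79 ± 0.43 (SE) in TGFb and 2.78 ± 0.43 in TGFb + RA. Adam6b passed the filter on low counts only through the groups with TGFb, so no p is given for these rises. Tmem121, on the other side of the locus and likewise picked out after its values were seen, fell in both, from 73, 71 and 53 counts in IL-2 + IL-15 to 19, 34 and 23 in TGFb and 0, 0 and 2 in TGFb + RA (edgeR adjusted p = 0.0173 and 3.42e-06).

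The genes whose pattern over the 12 libraries was most like that of each member were found by the root mean square (RMS) difference of log2 CPM centred on each gene's mean, among 9565 genes. For Ighm they were Serpina3g, Zfyve28, Abca1, Ston1 and AU020206, with differences of 0.185 to 0.291, where Ighm's own RMS deviation from its mean was 1.06. For Igha they were Apol9b, Apol9a, Mcpt2, Mcpt1 and Foxp3 (0.595 to 0.946, against 3.90). For Ighd they were Ighj1, Ikzf4, Pmepa1, Timp2 and Plscr4 (0.442 to 0.666, against 1.55). For Igkc they were Cyb561, Alpk2, Adora3, Igsf3 and Smtn (0.479 to 0.760, against 1.96), and for Jchain Pkhd1l1, Cldnd1, Igsf3, Nek6 and Kcnab3 (0.770 to 0.897, against 1.598). For Cd79b they were Tacc1, Cd55, Ski, Atp6v0d1 and Smurf1 (0.136 to 0.145, against 0.403). Igsf3 is in the lists of both Igkc and Jchain. Genes with a mean under 5 CPM, Igkc and Jchain among them, could not enter a list.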

How the data were processed

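RNA was sequenced from 12 libraries of cultured mouse CD8 T cells, 3 in each of 4 groups taken from the treatment labels, prepared with a column kit and a stranded mRNA kit per the labels' protocols. Per the submitters' processing notes the authors used STAR, featureCounts and GRCm38; tool versions, the annotation release, the strand setting and the treatment of multiply mapped reads are not given in the sources used here. Raw read counts per gene were deposited, which the authors did not normalize, as whole numbers summing to 18300206 to 33477037 per library. All 12 libraries were used, 0 entries name no gene, and 12 sample columns of a second deposited table, whose names could not be matched to labels, were not used.

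The 6 members and all gene lists were chosen with earlier results of these data known. A filter on low counts (edgeR 4.0.16, filterByExpr, minimum count 10, under R 4.3.3) kept 14009 genes, all 6 members among them, holding at least 99.9% of each library's counts. Libraries were scaled by TMM and fitted together in 1 quasi-likelihood model of 4 group means (8 residual degrees of freedom). Genes other than the members were tested in 6 contrasts and called where the p adjusted by Benjamini-Hochberg was under 0.05. Each SE is the size of the log2 fold change (prior count 0.125) over the square root of F and may be too small for genes with few counts. CPM are TMM-scaled; coordinates, exon lengths and transcript sequences come from GENCODE M21 for GRCm38, which held 45143 of the identifiers (98.0%). No sources say that libraries came from separate animals, so the p-values measure the spread between these libraries.

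Named genes are the 6 members, any other constant region gene with a count, up to 4 genes of each other list with the smallest adjusted p in TGFb + RA against IL-2 + IL-15 among those called, and for each member the 5 genes most like it by RMS difference of centred log2 CPM (prior count 2), among genes of at least 5 CPM without predicted models. Markers and gene segments are named beside these, genes such as Pou2af1, Adam6b and Tmem121 were chosen after their values were seen, and some genes of the lists are not reported here. Replicate numbers are shared between groups. Between IL-2 + IL-15 and RA, same-numbered libraries deviated together from their group means (correlations over genes of 0.130 to 0.341, all over 0.1, against -0.301 to 0.0841 for other numbers), a pairing that comes from the data and not from the labels. Alternatives were DESeq2 size factors, no filter, DESeq2 1.42.0 with its Wald test, a block for replicate number, leaving out each library, and CPM by library totals alone.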

Additional observations from a re-analysis of the deposited data

Results flagged for a closer look

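For 6 genes named from the lists, the effect of RA differed between cultures with and without TGFb, by the edgeR test of the interaction (adjusted over all genes). No member of the set is among them, since members were not tested. The interaction on the log2 scale was -2.28 for Exo1 (adjusted p = 0.000177), -1.64 for Irf4 (adjusted p = 5.06e-09), -0.80 for Ung (adjusted p = 0.00848), -0.45 for Rarg (adjusted p = 0.00361) and 0.45 for Cd72 (adjusted p = 0.00387), and each of these 5 was called in 16 of 16 alternative fits. Exo1 fell with RA by 3.00 in TGFb cultures and by 0.73 without TGFb, and Irf4 by 2.00 and 0.37. For Id2 the interaction was -0.64 (adjusted p = 0.0334), and its call was lost in 8 of 16 alternative fits; over the 16 the adjusted p ranged from 0.000374 to 0.0831.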

How the results depend on the processing

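Counts of called list genes changed by less than 1.5 times in all 96 alternative fits over the 6 contrasts. With the replicate number as a block they were 26, 44, 48, 42, 41 and 16, where the fit without it gave 26, 43, 46, 40, 40 and 14 (RA, TGFb and TGFb + RA against IL-2 + IL-15, TGFb + RA against TGFb and against RA, and the interaction). In RA against IL-2 + IL-15, where the numbers pair the libraries, the block changed the call of no named list gene. In the other 5 pairs of groups at least 1 same-numbered pair had a correlation of 0.1 or less, so they were not treated as paired. That limit is a choice. Same-numbered libraries of TGFb and TGFb + RA had 0.0978 to 0.168, against -0.0168 at most for other numbers. Those of IL-2 + IL-15 and TGFb + RA had 0.0745 to 0.117, against 0.00396 at most. A pairing there is thus not excluded. Leaving out each library gave 6 to 11 neighbouring genes called in TGFb against IL-2 + IL-15 (10 with all libraries, 6 without TGFb replicate 1) and 4 to 11 in the interaction (6 with all, 11 without RA replicate 3). Of 496 alternative log2 fold changes of members, 490 moved by less than the spread between replicates, and none that had groups without overlap changed sign. The 6 that moved more were 5 of Ighd, without IL-2 + IL-15 or RA replicate 3, and 1 of Igkc. The sign changed in 1 of 16 alternatives each, always on leaving out a library, for 5 values: RA against IL-2 + IL-15 for Jchain (-0.45 to 1.03) and Ighd (-0.21 to 1.10), Jchain in TGFb + RA against IL-2 + IL-15 (-0.089 to 0.40) and against RA (-0.82 to 0.66), and the interaction for Ighm (-0.028 to 0.31). By library totals alone, 23 of 24 mean levels moved by less than their SD, and Ighm in TGFb was 1403 CPM instead of 1371. The count table of the whole series was not run, because its columns could not be matched to labels. Members with few counts (Igkc, Ighg3, and Jchain without TGFb) are limited by depth.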
